A study of Mus musculus with 40 samples.

Results

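The 10 Wnt ligand genes Wnt3, Wnt3a, Wnt8a, Wnt2b, Wnt5a, Wnt5b, Wnt11, Wnt4, Wnt7a and Wnt7b were followed over 5 days in mouse stem cell aggregates with and without a Wnt pathway inhibitor. They were taken by gene symbol from a count table of 26906 genes, all 10 were found there, and all 10 were among the 16878 genes that passed the filter on low counts. In the order of their highest days, 4 ligands came and went again in both arms (Wnt3, Wnt3a, Wnt8a and Wnt2b), and Wnt7a was late in both arms. Wnt5a and Wnt5b rose and were still above day 3 at day 7. At day 5 Wnt2b was lower in aggregates that had received the inhibitor, and at day 6 Wnt7b was higher, and each of these calls was lost when certain single libraries were left out. Both calls held when same-numbered libraries of a day were paired in the fit. That pairing also called Wnt5a lower at day 5, and Wnt7a higher and Wnt2b lower at day 6.

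The cells were embryonic stem cells of the mouse line CGR8 (strain 129), aggregated in N2B27 medium without serum but with Activin-A, Fgf2 and KSR. XAV939 aggregates received the inhibitor between 0 and 72 h, so day 3 is the end of the exposure and days 4, 5, 6 and 7 lie after it, and untreated aggregates received none. Each arm was sampled at days 3, 4, 5, 6 and 7 with 4 poly(A) RNA libraries a group, 40 in all, of 30197759 to 44086019 counts each. All groups come from the same line, so nothing here shows how another line would behave. The labels do not say whether libraries of a group were separate cultures, so each p-value reflects nothing beyond the scatter of these libraries, which may be technical. Matrigel is named as absent in the titles of the untreated arm and is not mentioned in those of the XAV939 arm, and a matrigel difference between the arms, if there was one, cannot be told apart from XAV939.

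Wnt ligands are secreted, lipid-bearing glycoproteins. In the canonical branch they bind a Frizzled receptor and the co-receptor Lrp5 or Lrp6, which stops the Axin complex from destroying β-catenin, and β-catenin then acts with TCF/LEF factors on target genes such as Axin2. XAV939 inhibits tankyrases, which keeps Axin stable and so lowers that branch. In the mouse embryo Wnt3 is needed to form the primitive streak, Wnt3a maintains the axial progenitors that build the trunk and tail, and Wnt8a is made in the streak, whereas Wnt5a, Wnt5b and Wnt11 are known mainly for β-catenin-independent signals that steer cell movement and axis extension. Wnt4 is best known from kidney and gonad, and Wnt7a and Wnt7b from the neural tube, its vessels and the limb.

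The DNA before the annotated start was read for the ligands listed in a table of RefSeq promoters (build GRCm38.p6), which held 10 promoters of 7 of the ligands, while Wnt8a, Wnt5a and Wnt7b had no entry. Shown are those of a pair of transient ligands on chromosome 11, Wnt3 and Wnt3a, of Wnt11, which holds a match to a TCF/LEF letter pattern, and of the late ligand Wnt7a, so that the sequence can be set beside the time courses. Each runs 5′ to 3′ on the gene's strand and ends at the base before the start. Capitals mark a match to the pattern.
Wnt3 (chr11:103773925-103774149, + strand): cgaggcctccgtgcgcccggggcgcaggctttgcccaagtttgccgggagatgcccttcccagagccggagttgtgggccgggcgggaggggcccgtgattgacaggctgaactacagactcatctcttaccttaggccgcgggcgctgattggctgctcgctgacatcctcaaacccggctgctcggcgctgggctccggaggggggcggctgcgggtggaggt
Wnt3a (chr11:59290753-59291001, - strand): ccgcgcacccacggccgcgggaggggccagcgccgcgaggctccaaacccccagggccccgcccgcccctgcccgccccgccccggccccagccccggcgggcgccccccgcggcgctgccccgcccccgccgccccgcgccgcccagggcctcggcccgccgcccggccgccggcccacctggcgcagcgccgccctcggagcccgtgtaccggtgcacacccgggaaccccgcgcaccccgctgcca
Wnt11 (chr7:98834862-98835111, + strand): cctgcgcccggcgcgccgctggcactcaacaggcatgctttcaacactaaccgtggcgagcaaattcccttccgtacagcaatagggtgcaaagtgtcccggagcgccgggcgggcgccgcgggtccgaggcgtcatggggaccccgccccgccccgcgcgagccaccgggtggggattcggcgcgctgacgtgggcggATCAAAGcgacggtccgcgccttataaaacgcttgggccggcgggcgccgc
Wnt7a (chr6:91411364-91411603, - strand): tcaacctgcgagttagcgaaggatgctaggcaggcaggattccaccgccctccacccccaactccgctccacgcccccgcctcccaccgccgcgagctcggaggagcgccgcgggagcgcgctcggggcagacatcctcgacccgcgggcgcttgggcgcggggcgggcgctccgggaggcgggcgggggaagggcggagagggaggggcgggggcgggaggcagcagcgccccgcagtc
The patterns were searched on both strands of all 250 bases before each listed start, also where fewer are shown above because annotated exons of the gene were left out. They were CTTTGAA as the first pattern, CTTTGAT as another, CTTTGTA as the third and CTTTGTT as the last. They occurred in 2 of the 10 ligand promoters, the one of Wnt11 above and an inner promoter of Wnt5b, and in 4874 of 32851 promoters of the table (14.8%). In the stretches shown G and C made up 68.9% of the bases in Wnt3, 87.6% in Wnt3a, 70.8% in Wnt11 and 77.1% in Wnt7a, against a median of 52.4% over the full 250 bases in the table.

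By position in mm10 and the GENCODE annotation, the ligand genes lie on 8 chromosomes. Wnt3 (chromosome 11, 103774150 to 103817957, + strand) and Wnt3a (chromosome 11, 59248033 to 59290752, − strand) share a chromosome, as do Wnt5b (chromosome 6, 119432531 to 119544347, − strand) and Wnt7a (chromosome 6, 91363981 to 91411363, − strand). Wnt2b lies on chromosome 3 (104945272 to 104961921, − strand), Wnt4 on chromosome 4 (137277489 to 137299726, + strand) and Wnt11 on chromosome 7 (98835112 to 98855195, + strand). Wnt5a lies on chromosome 14 (28504750 to 28527448, + strand), Wnt7b on chromosome 15 (85535437 to 85582473, − strand) and Wnt8a on chromosome 18 (34542313 to 34548273, + strand). Exons of 3 ligand genes overlap a gene on the other strand, Wnt5a with Gm2670 over 233 bases, Wnt7b with AU022754 over 198 and Wnt11 with Gm8398 over 364. The libraries were stranded but the strand setting of the counting is not given in the sources used here. Gm2670 averaged at most 0.112 CPM (counts scaled by library total) and AU022754 at most 0.293 CPM in any group.

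To compare ligands with each other, CPM were divided by the length of the longest annotated transcript, and the order of the ligands depends on that choice. On this scale, CPM per kb, the sum over the 10 ligands averaged 4.53, 37.4, 82.2, 35.3 and 18.9 at days 3, 4, 5, 6 and 7 in XAV939 aggregates and 7.28, 75.0, 119, 34.9 and 16.7 in untreated aggregates. Wnt8a had the highest share at days 3, 4, 5 and 6, with means of 45.6%, 81.7%, 82.5% and 47.1% at days 3, 4, 5 and 6 in XAV939 aggregates and 54.7%, 83.3%, 75.2% and 49.2% in untreated aggregates. At day 7 its share was 6.17% in XAV939 and 6.27% in untreated aggregates, and Wnt5a led with 29.3% and 41.3%, followed by Wnt5b with 26.1% and 27.4% and Wnt7a with 24.2% and 16.3%. At day 7 the first 3 ligands in XAV939 aggregates, Wnt5a at 5.54 ± 1.17 CPM per kb, Wnt5b at 4.91 ± 0.854 and Wnt7a at 4.55 ± 1.68 (SD, n = 4), differed by less than those SDs. In untreated aggregates Wnt5a at 6.85 ± 0.834 CPM per kb was further above Wnt5b at 4.602 ± 1.02 than either SD, and Wnt5b was above Wnt7a at 2.79 ± 1.51. With the mean length of a gene's annotated transcripts instead, Wnt8a still had the highest share at days 3, 4 and 5. At day 6 its share was 34.0 ± 19.4% in XAV939 and 36.2 ± 18.5% in untreated aggregates and that of Wnt5a was 35.9 ± 8.96% and 39.8 ± 18.5%, a difference smaller than these SDs. At day 7 Wnt5a led with 44.7% and 59.2%, and Wnt7a, with 30.02% and 19.3%, came before Wnt5b, with 13.7% and 13.6%. On that length, day 7 levels of Wnt5a, Wnt7a and Wnt5b were 16.9 ± 3.57, 11.5 ± 4.25 and 5.17 ± 0.900 CPM per kb in XAV939 aggregates and 20.9 ± 2.55, 7.04 ± 3.81 and 4.85 ± 1.08 in untreated aggregates, so the mean of Wnt7a was above that of Wnt5b and Wnt5a lay further above Wnt5b than either SD in both arms. At day 5 Wnt8a had 67.9 ± 13.8 CPM per kb in XAV939 and 89.8 ± 21.2 in untreated aggregates, and no other ligand passed 4.02 in XAV939 or 8.49 in untreated aggregates. In these bulk libraries fewer cells that make a ligand and less RNA of it per cell cannot be told apart.

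**Figure D1:**
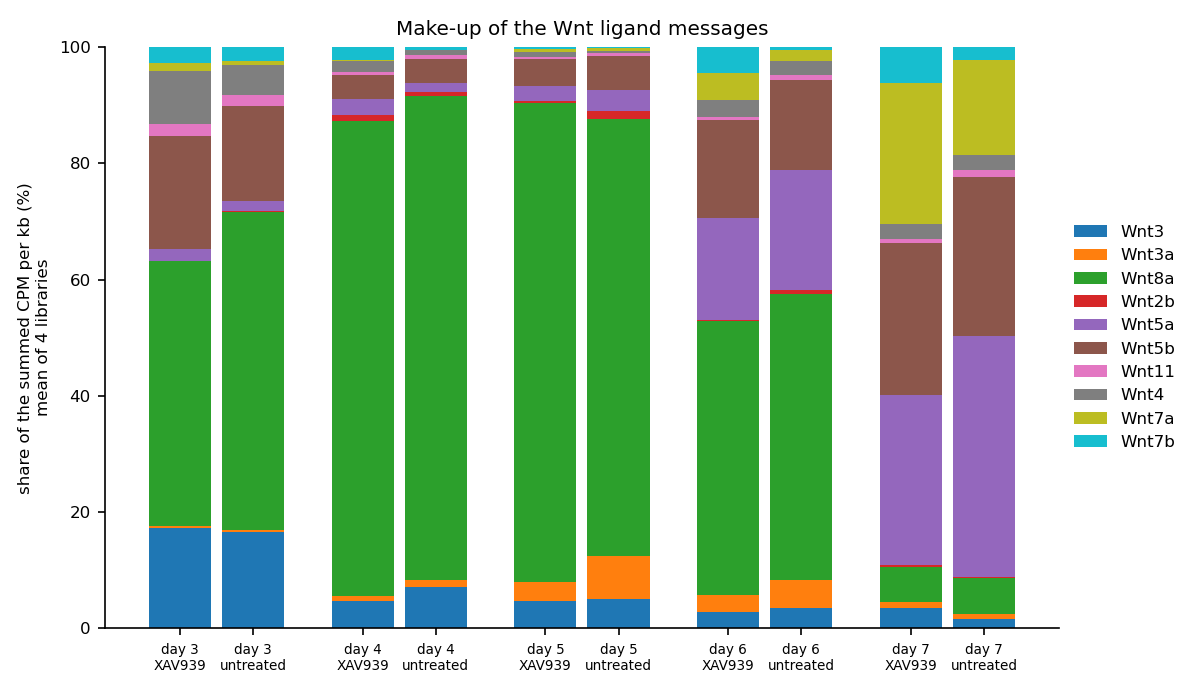
Each bar is 1 group and splits the summed CPM per kb of the 10 ligands into their mean shares over 4 libraries (percent, y axis), per longest transcript, with the XAV939 bar left of the untreated bar of its day. Wnt8a fills most of the bars at days 4 and 5 (75.2% to 83.3%), and Wnt5a, Wnt5b and Wnt7a fill most of the day 7 bars.

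The time course of each ligand was sorted by the edgeR quasi-likelihood test with p-values adjusted (Benjamini-Hochberg) over 16878 genes and a call at adjusted p below 0.05. A ligand was transient if its mean peaked at day 4, 5 or 6 with a called rise after day 3 and a called fall by day 7, plateau if it peaked at day 5 or 6 after a called rise and without a called fall, and late if it peaked at day 7 with a called rise over day 3. A ligand was early if it peaked at day 3, or at day 4 without a called rise before, and had a called fall by day 7. Since the peak is read from the same libraries, these classes describe them and are not tested as such. In XAV939 aggregates 4 ligands were transient, 5 were plateau and 1 (Wnt7a) was late. In untreated aggregates 5 were transient, 2 were plateau, 2 (Wnt5a and Wnt7a) were late and 1 (Wnt7b) had no class. By this rule no ligand was early in either arm. Plateau means only that no fall was called, not that a level was held. At day 7 the plateau ligands Wnt11 in XAV939 aggregates and Wnt4 in both arms were not called above day 3.

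**Figure D2:**
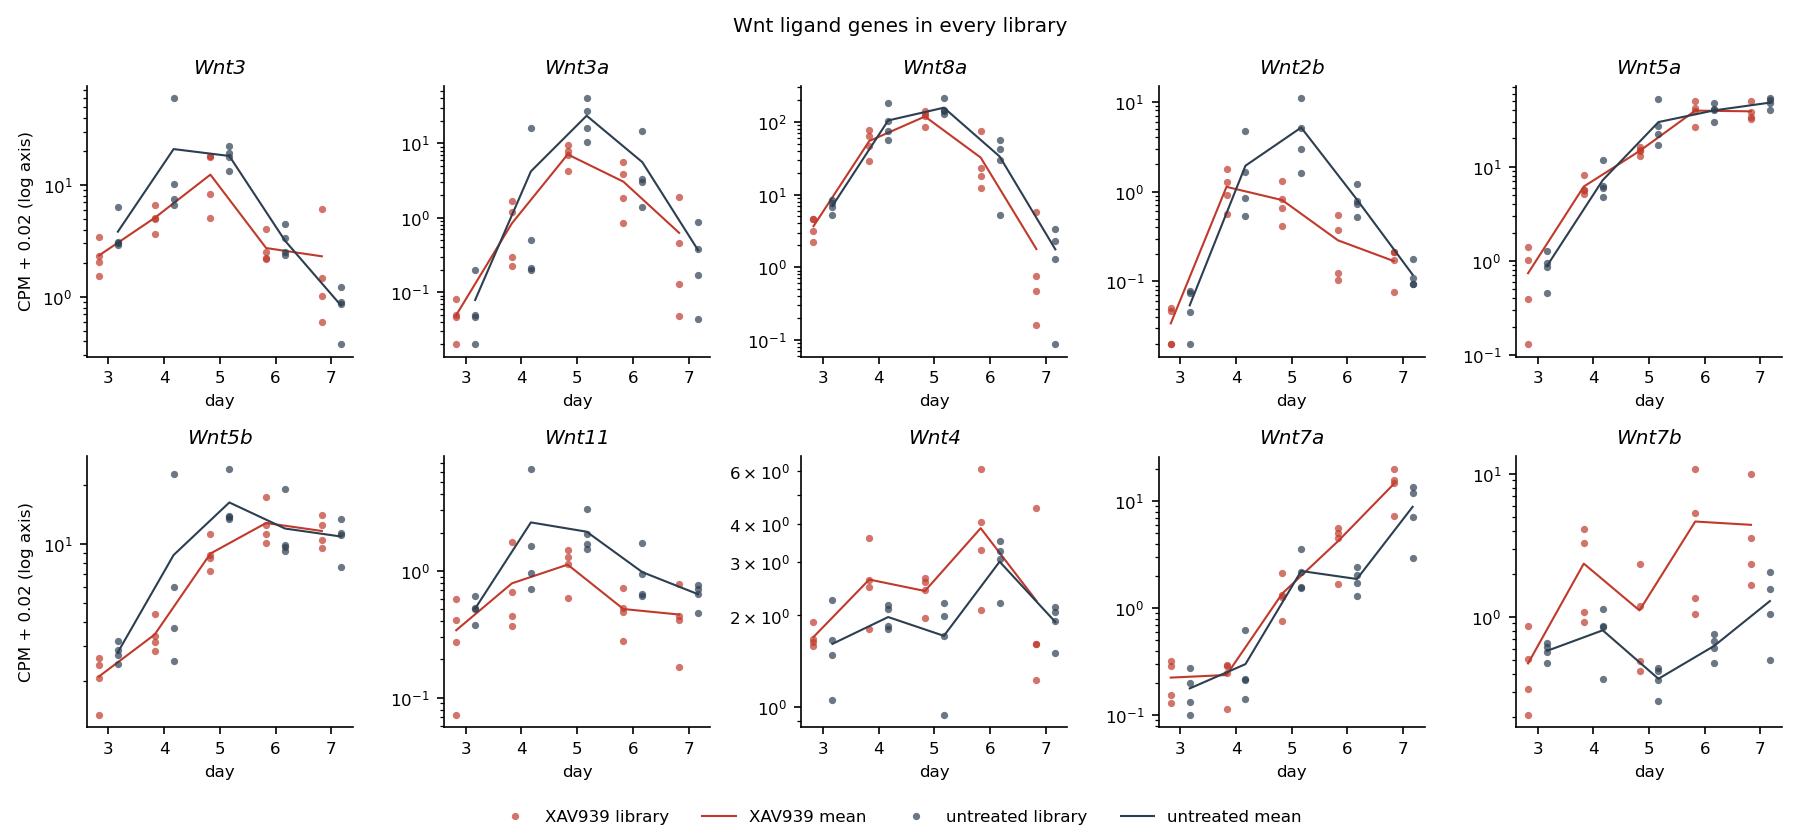
Each panel shows 1 ligand in CPM on a log axis (with 0.02 added so that libraries at 0 can be drawn) against the day, with a point for each library and a line through the group means, XAV939 left of untreated. Wnt3, Wnt3a, Wnt8a and Wnt2b rise and fall, Wnt5a and Wnt5b climb and at day 7 lie above day 3, and Wnt7a climbs to day 7 in both arms.

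Wnt8a was the most abundant ligand of the streak group. In XAV939 aggregates it had 2.24, 4.6, 4.66 and 3.11 CPM at day 3, 28.7, 78.3, 46.4 and 64.5 at day 4, 129, 84.9, 141 and 120 at day 5, 12.1, 23.5, 75.5 and 17.9 at day 6, and 0.139, 0.738, 5.70 and 0.447 at day 7. In untreated aggregates it had 8.36, 5.20, 6.71 and 7.58 CPM at day 3, 183, 102, 57.1 and 75.9 at day 4, 143, 144, 129 and 211 at day 5, 5.17, 42.2, 56.3 and 30.04 at day 6, and 0.067, 2.29, 3.31 and 1.29 at day 7. In both arms every day 4 library was above every day 3 library and every day 5 library was above every day 6 and day 7 library. The rise at day 4 over day 3 came to 3.90 in log2 units (SE 0.72, adjusted p 5.36e-05) in XAV939 and 3.91 (SE 0.71, adjusted p 4.71e-05) in untreated aggregates. At day 7 against day 6 it fell by 4.18 (SE 0.74, adjusted p 0.000333) in XAV939 and by 4.30 (SE 0.75, adjusted p 0.000236) in untreated aggregates on the log2 scale. The XAV939 call between days 7 and 6 was lost in a fit of only those libraries (adjusted p 0.0631). At day 6 against day 5 it also fell, by 1.88 (SE 0.64, adjusted p 0.039) in XAV939 and by 2.23 (SE 0.65, adjusted p 0.0121) in untreated aggregates. The XAV939 call between days 6 and 5 was lost with DESeq2 (adjusted p 0.0646), without a filter on low counts (0.0911) and without any of 6 single libraries, at adjusted p between 0.0566 (without day 5 replicate 4) and 0.138 (without day 6 replicate 1). The others were day 5 replicates 1 (0.0677) and 3 (0.0908) and day 6 replicates 2 (0.106) and 4 (0.124). By day 7 untreated aggregates were below their day 3 level, at -2.04 against it (SE 0.71, adjusted p 0.0124), while in XAV939 aggregates the difference of -1.03 (adjusted p 0.199) was not called, and was -3.03 (adjusted p 0.00147) without day 7 replicate 3.

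Wnt3, the ligand that starts the streak in the embryo, had a lower and more uneven course. XAV939 libraries held 3.41, 2.32, 1.52 and 2.05 CPM at day 3, 4.96, 6.61, 3.6 and 5.05 at day 4, 17.9, 8.26, 18.2 and 5.07 at day 5, 4.03, 2.15, 2.48 and 2.19 at day 6, and 6.10, 0.574, 1.46 and 1.01 at day 7. Untreated libraries held 6.30, 3.05, 2.87 and 3.01 CPM at day 3, 59.5, 10.1, 6.56 and 7.47 at day 4, 13.2, 22.2, 19.2 and 17.9 at day 5, 3.36, 2.48, 4.43 and 2.34 at day 6, and 0.357, 0.877, 1.21 and 0.846 at day 7. The mean was highest at day 5 in XAV939 aggregates and at day 4 in untreated aggregates, where replicate 1 alone set it. At day 5 against day 3 Wnt3 rose by 2.40 (SE 0.58, adjusted p 0.000646) in XAV939 and by 2.25 (SE 0.57, adjusted p 0.00116) in untreated aggregates. At day 6 against day 5 it fell by 2.19 (SE 0.58, adjusted p 0.00685) in XAV939 and by 2.53 (SE 0.58, adjusted p 0.00159) in untreated aggregates. At day 7 against day 3 it was below its starting level in untreated aggregates (log2 fold change -2.23, SE 0.62, adjusted p 0.00188) and at -0.03 (adjusted p 0.965) in XAV939 aggregates, where it was at -1.19 (adjusted p 0.0682) without day 7 replicate 1, and the difference between the arms in this change was not tested.

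Wnt3a, the paralogue of Wnt3, was nearly silent at day 3, with 4 counts over the 4 XAV939 libraries and 9 over the 4 untreated libraries. In XAV939 aggregates it had 1.65, 0.274, 0.202 and 1.16 CPM at day 4, 9.34, 6.93, 7.81 and 4.21 at day 5, 3.8, 0.826, 5.67 and 1.82 at day 6, and 1.86, 0.109, 0.435 and 0.028 at day 7. In untreated aggregates it had 15.8, 0.195, 0.181 and 0.485 CPM at day 4, 40.2, 15.8, 27.4 and 10.3 at day 5, 1.36, 3.31, 14.6 and 2.99 at day 6, and 0.357, 0.0244, 0.858 and 0.149 at day 7. All 8 day 5 libraries were above all day 3 and day 7 libraries of their arm. At day 5 against day 3 the fitted log2 fold change was 7.71 (SE 1.53, adjusted p 5.59e-05) in XAV939 and 8.50 (SE 1.41, adjusted p 4.55e-06) in untreated aggregates, and at day 7 against day 5 it was -3.54 (SE 1.05, adjusted p 0.00734) and -6.13 (SE 1.17, adjusted p 7.33e-05). Of the single steps, the rise at day 4 over day 3 in XAV939 aggregates (adjusted p 0.0301) was lost without any filter on low counts (0.0696) and without any 1 of day 3 replicates 1 (0.0631), 2 (0.0611), 3 (0.0567) or 4 (0.0695) and day 4 replicates 1 (0.0966) or 4 (0.0578). The rise at day 5 over day 4 in XAV939 aggregates (3.10, SE 1.02, adjusted p 0.0192) was lost without day 4 replicate 2 (adjusted p 0.0668) or 3 (0.0693).

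Wnt2b was the ligand with the fewest reads at day 3, with 2 counts over the 4 XAV939 libraries and 5 over the 4 untreated libraries. XAV939 libraries held 1.74, 0.884, 0.547 and 1.26 CPM at day 4, 0.814, 0.635, 1.29 and 0.395 at day 5, 0.529, 0.0826, 0.351 and 0.104 at day 6, and 0.194, 0.191, 0.153 and 0.0559 at day 7. Untreated libraries held 4.69, 0.834, 0.514 and 1.63 CPM at day 4, 10.9, 2.99, 5.06 and 1.60 at day 5, 0.773, 1.20, 0.711 and 0.498 at day 6, and 0.0893, 0.0731, 0.159 and 0.0747 at day 7. Its mean peaked at day 4 in XAV939 aggregates and at day 5 in untreated aggregates. Day 5 against day 4 was -0.49 (adjusted p 0.539) in XAV939 and 1.42 (adjusted p 0.0545) in untreated aggregates, called in neither. The difference of these steps, -1.91 on the log2 scale (SE 0.76), was not called (adjusted p 0.799). The summed counts gave a ratio of 72.1 at day 4 over day 3 in XAV939 aggregates (95% interval 19.6 to 601, counting error only, since the day 3 sum is 2 counts), and the test called the rise (adjusted p 6.48e-06). In untreated aggregates day 4 against day 3 was 5.67 (SE 0.80, adjusted p 1.09e-06). It then fell in untreated aggregates, with -2.68 at day 6 against day 5 (SE 0.56, adjusted p 0.000554) and -3.002 at day 7 against day 6 (SE 0.70, adjusted p 0.00406). In XAV939 aggregates the fall stood between days 7 and 4 (-2.86, SE 0.66, adjusted p 0.000368).

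Wnt5a, a ligand of the β-catenin-independent branch, climbed without a later fall in either arm. In XAV939 aggregates it had 0.373, 0.992, 1.40 and 0.110 CPM at day 3, 8.12, 5.70, 5.68 and 5.09 at day 4, 14.99, 14.7, 12.9 and 16.2 at day 5, 50.1, 26.5, 41.8 and 39.5 at day 6, and 50.5, 38.6, 33.8 and 32.4 at day 7. In untreated aggregates it had 0.932, 0.836, 1.25 and 0.431 CPM at day 3, 11.9, 5.92, 4.81 and 6.16 at day 4, 52.9, 22.2, 27.4 and 16.9 at day 5, 47.3, 40.1, 30.2 and 41.3 at day 6, and 53.4, 48.0, 50.8 and 39.9 at day 7. In XAV939 aggregates each of days 4, 5 and 6 lay wholly above the day before, and days 6 and 7 overlapped. The called steps were day 4 over day 3 (3.07, SE 0.40, adjusted p 1.69e-07), day 5 over day 4 (1.25, SE 0.33, adjusted p 0.00406) and day 6 over day 5 (1.43, SE 0.33, adjusted p 0.00194). In untreated aggregates they were day 4 over day 3 (3.05, SE 0.38, adjusted p 1.57e-07) and day 5 over day 4 (2.05, SE 0.34, adjusted p 4.07e-05). At day 6 over day 5 the untreated value was 0.41 (adjusted p 0.409). It was 0.95 (adjusted p 0.0187) without untreated day 4 replicate 1, day 5 replicate 1 and day 6 replicate 3. The difference between the arms in that step, 1.02 on the log2 scale (SE 0.46), was not called. Day 7 over day 3 came to 5.73 (SE 0.42, adjusted p 5.7e-14) in XAV939 and 5.78 (SE 0.41, adjusted p 3.88e-14) in untreated aggregates, about 53.1-fold and 55.1-fold.

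Wnt5b, the close paralogue of Wnt5a, was already at 2.08 ± 0.554 CPM in XAV939 and 2.77 ± 0.326 CPM in untreated aggregates at day 3. It averaged 3.42 ± 0.663, 8.92 ± 1.67, 12.8 ± 3.19 and 11.6 ± 2.02 CPM at days 4, 5, 6 and 7 in XAV939 aggregates and 8.76 ± 9.49, 16.3 ± 5.30, 11.98 ± 4.81 and 10.9 ± 2.42 CPM in untreated aggregates (SD, n = 4). Its highest mean came at day 6 in XAV939 aggregates and at day 5 in untreated aggregates. Day 7 over day 3 was 2.48 (SE 0.41, adjusted p 1.94e-06) in XAV939 and 1.98 (SE 0.40, adjusted p 4.56e-05) in untreated aggregates. In XAV939 aggregates the called step was day 5 over day 4 (1.38, SE 0.39, adjusted p 0.00654).

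Wnt11, which guides cell movements at gastrulation, stayed low. Its group means ran between 0.320 CPM at day 3 and 1.10 CPM at day 5 in XAV939 aggregates and between 0.483 CPM at day 3 and 2.38 CPM at day 4 in untreated aggregates. Day 5 against day 3 was 1.78 (SE 0.60, adjusted p 0.011) in XAV939 and 2.05 (SE 0.56, adjusted p 0.00246) in untreated aggregates. Day 7 against day 5 was called in untreated aggregates (-1.66, SE 0.55, adjusted p 0.0151) and not in XAV939 aggregates (-1.35, SE 0.57, adjusted p 0.0628), and the difference between the arms in that change was not tested. Day 7 against day 3 was 0.44 (adjusted p 0.544) in XAV939 and 0.39 (adjusted p 0.566) in untreated aggregates, called in neither. With a replicate block over all libraries, Wnt11 and Wnt4 in XAV939 aggregates became transient instead of plateau.

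Wnt4 moved least. Its library values lay between 1.20 and 6.07 CPM in XAV939 and between 0.921 and 3.49 CPM in untreated aggregates over the 5 days. Both arms peaked at day 6, which was above day 3 by 1.20 (SE 0.32, adjusted p 0.00138) in XAV939 and by 0.91 (SE 0.32, adjusted p 0.014) in untreated aggregates. Day 7 over day 3 was 0.40 (adjusted p 0.267) in XAV939 and 0.24 (adjusted p 0.516) in untreated aggregates, called in neither.

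Wnt7a was the only ligand that was late in both arms. XAV939 libraries held 0.133, 0.271, 0.304 and 0.110 CPM at day 3, 0.271, 0.274, 0.230 and 0.0942 at day 4, 2.10, 1.30, 0.744 and 1.25 at day 5, 5.59, 5.07, 1.65 and 4.51 at day 6, and 15.6, 14.8, 7.21 and 20.05 at day 7. Untreated libraries held 0.113, 0.0809, 0.179 and 0.258 CPM at day 3, 0.605, 0.195, 0.121 and 0.200 at day 4, 3.58, 1.55, 1.53 and 2.16 at day 5, 1.28, 2.40, 2.04 and 1.70 at day 6, and 13.5, 7.14, 2.89 and 11.8 at day 7. Days 3 and 4 overlapped in both arms, and in both arms every day 5 library was above every day 4 library. The steps called in both arms were day 5 over day 4 (2.61, SE 0.52, adjusted p 0.000236 in XAV939, and 2.96, SE 0.50, adjusted p 5.53e-05 in untreated aggregates) and day 7 over day 6 (1.78, SE 0.41, adjusted p 0.00483, and 2.26, SE 0.43, adjusted p 0.000569). Between them, day 6 over day 5 rose in XAV939 aggregates (1.64, SE 0.43, adjusted p 0.0065) and stood at -0.25 (adjusted p 0.736) in untreated aggregates. That difference of steps, 1.88 on the log2 scale (SE 0.60), was not called (adjusted p 0.703).

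Wnt7b, its paralogue, differed between the arms in level and in evenness. In XAV939 aggregates it had 0.186, 0.842, 0.487 and 0.293 CPM at day 3, 4.12, 1.07, 0.893 and 3.27 at day 4, 1.18, 0.469, 0.401 and 2.30 at day 5, 10.8, 1.02, 1.32 and 5.31 at day 6, and 10.01, 2.32, 1.64 and 3.55 at day 7. In untreated aggregates it had 0.452, 0.593, 0.640 and 0.546 CPM at day 3, 0.346, 0.834, 0.846 and 1.11 at day 4, 0.418, 0.400, 0.339 and 0.237 at day 5, 0.453, 0.657, 0.582 and 0.733 at day 6, and 2.03, 1.02, 0.477 and 1.54 at day 7. In XAV939 aggregates replicates 1 and 4 were the 2 highest on all 4 days after day 3, and in untreated aggregates on 1 of them. Day 7 over day 3 was 3.27 (SE 0.68, adjusted p 6.86e-05) in XAV939 and 1.19 (SE 0.65, adjusted p 0.104) in untreated aggregates. Day 6 over day 5 was called in XAV939 aggregates (2.10, SE 0.63, adjusted p 0.017), but not without day 6 replicate 1 (1.24, adjusted p 0.21), without day 5 replicates 2 (adjusted p 0.0607) or 3 (0.0782), or in a fit of only those libraries (0.0937).

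Counted over the ligands, 5 rose at day 4 over day 3 in XAV939 aggregates (Wnt3a, Wnt8a, Wnt2b, Wnt5a and Wnt7b), where 20.3% of all genes tested rose. In untreated aggregates 7 rose (Wnt3, Wnt3a, Wnt8a, Wnt2b, Wnt5a, Wnt5b and Wnt11), where 17.6% of genes did. All 10 ligands had a positive value for that step in each arm. At day 5 over day 4, 4 rose in XAV939 aggregates, Wnt3a, Wnt5a, Wnt5b and Wnt7a (15.9% of genes), and 2, Wnt5a and Wnt7a, in untreated aggregates (10.5%). At day 6 over day 5, Wnt5a, Wnt7a and Wnt7b rose (9.27% of genes) and Wnt3 and Wnt8a fell (7.68%) in XAV939 aggregates, and Wnt3, Wnt8a and Wnt2b fell in untreated aggregates (8.72%). At day 7 over day 6, Wnt7a rose (4.2% of genes) and Wnt8a fell (2.96%) in XAV939 aggregates, and Wnt7a rose (5.17%) and Wnt3, Wnt3a, Wnt8a and Wnt2b fell (7.02%) in untreated aggregates. In that last step the untreated falls of Wnt3 and Wnt3a were lost without day 6 replicate 3 (adjusted p 0.122 and 0.12). That of Wnt3 was also lost without day 7 replicates 1 (0.119), 2 (0.0625) or 4 (0.0718) and without a filter on low counts (0.0636), and that of Wnt3a without day 7 replicate 4 (0.0501) and in a fit of only those libraries (0.0614). Over the whole course, day 7 against day 3, 6 rose in XAV939 aggregates (36.8% of genes), while 3 rose (34.7%) and 2 fell (32.6%) in untreated aggregates. The XAV939 rise of Wnt3a over the whole course (4.17, adjusted p 0.0318) was lost without day 7 replicate 1 (2.55, adjusted p 0.269) and without day 3 replicates 1 (0.0649), 2 (0.0601) or 4 (0.0655) or any filter on low counts (also 0.0655), and that of Wnt2b (adjusted p 0.021) without day 3 replicate 3 (0.0557). Same-numbered XAV939 libraries deviated together over the last 3 steps. The replicate block, however, covered both arms and all days, and between days 7 and 3 of an arm 1 of 8 correlations was over 0.1. With that block Wnt2b in XAV939 aggregates fell at day 6 against day 5 (-1.67, adjusted p 0.0225). Wnt3a (-2.64, adjusted p 0.0493) and Wnt4 (-0.85, adjusted p 0.0269) fell at day 7 against day 6. This made 4 called ligands instead of 2 in the last step, for which the count of all genes with the block is not given here.

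The day 4 values of untreated aggregates depended on replicate 1. That library was above the other 3 for 8 of the 10 ligands. Wnt3a was 81.3 times their median there, Wnt3 7.96 times, Wnt11 6.73 times, Wnt5b 6.16 times and Wnt2b 5.62 times, whereas Wnt4 was at 1.14 times and Wnt7b at 0.408 times. T, the brachyury gene of the primitive streak, had 549 CPM in it, and the summed primitive streak markers (T, Mixl1, Eomes, Mesp1 and Gsc) reached 1069 CPM, against a group median of 145 CPM. The part of these markers' source in the ligand values was not tested. Without that library, 4 of the 7 calls of day 4 over day 3 in untreated aggregates were lost, with Wnt3 at 1.08 (adjusted p 0.0876), Wnt3a at 2.17 (0.238), Wnt5b at 0.56 (0.144) and Wnt11 at 1.14 (0.0893). The day 5 over day 4 rises of Wnt3a (6.33, adjusted p 2.41e-05), Wnt2b (2.36, adjusted p 0.00131) and Wnt5b (2.0, adjusted p 4.59e-06) were then called.

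**Figure D3:**
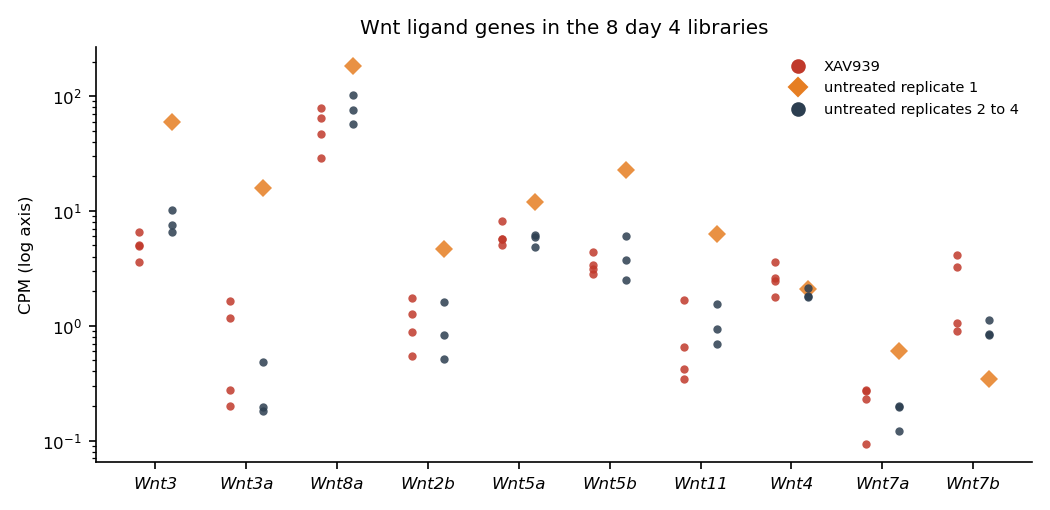
CPM on a log axis for each ligand in the 8 day 4 libraries, XAV939 left of untreated, with untreated replicate 1 as diamonds. The diamond lies above the other untreated points for all ligands but Wnt4 and Wnt7b.

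XAV939 aggregates were then set against untreated aggregates at each day. At days 3 and 4 no ligand was called by the edgeR test, and DESeq2 called 0 as well, where edgeR called 0.00592% and 0.0178% of all genes. At an unadjusted p below 0.05 there were 0 ligands and 309 of 16878 genes at day 3. At day 4 there were 5 ligands and 944 genes. At day 3, at the end of the exposure, 8 of the 10 ligands had a negative value, with a median log2 fold change of -0.51 against -0.02 over all genes tested. The groups did not overlap for Wnt8a (2.24 to 4.66 CPM in XAV939 and 5.20 to 8.36 CPM in untreated aggregates), a state found for 1.29% of genes, but its log2 fold change of -0.93 (SE 0.68, adjusted p 1) was not called. At day 4 again 8 of 10 were negative, with a median of -0.87, and the groups overlapped for all 10 ligands, whereas 2.03% of genes did not overlap. Wnt4 (0.41) and Wnt7b (1.57, SE 0.63, adjusted p 0.639) were positive. The furthest below 0 were Wnt3a at -2.34 (adjusted p 0.726), Wnt3 at -2.05 (adjusted p 0.215), Wnt11 at -1.62 (adjusted p 0.427) and Wnt5b at -1.36 (adjusted p 0.249). Without untreated replicate 1 these became 1.5, -0.67, -0.46 and -0.25, all at adjusted p 1, and Wnt2b (0.16), Wnt5a (0.13) and Wnt7a (0.33) were also positive, so that 4 of 10 ligands were then negative. Wnt5b was called without untreated replicate 3 (-1.66, adjusted p 0.0322).

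At day 5, 8 of 10 ligands were again negative (median -0.79), and Wnt2b was called lower, as 1.43% of genes were. It had 0.395 to 1.29 CPM in XAV939 and 1.60 to 10.9 CPM in untreated aggregates, and its log2 fold change was -2.70 (SE 0.56, adjusted p 0.00711), 6.49-fold lower. The call was lost without XAV939 replicate 4 (-2.49, adjusted p 0.0513) or untreated replicate 1 (-2.03, adjusted p 0.0732), and in a fit of only the 8 libraries (adjusted p 0.0916). It held with a replicate block within the day. The groups did not overlap for 5 ligands, Wnt3a, Wnt2b, Wnt5a, Wnt5b and Wnt11, all lower in XAV939 aggregates, where 7.46% of genes did not overlap in either direction. Of these Wnt5a stood at -1.02 (SE 0.33, adjusted p 0.0945). It was called with DESeq2 (-1.04, adjusted p 0.0469), without untreated replicate 4 (-1.24, adjusted p 0.0357) and once same-numbered libraries of the day were paired in the fit (-0.90, adjusted p 0.0193 with this block), and without untreated replicate 1 it was -0.60 (adjusted p 0.506). Wnt3a stood at -1.73 (SE 0.92, adjusted p 0.461). Positive were Wnt4 (0.50, adjusted p 0.602) and Wnt7b (1.62, SE 0.69, adjusted p 0.28). The summed presomitic and paraxial mesoderm markers (6 of 6 detected) ran between 6.85 and 14.1 CPM in XAV939 and between 13.3 and 161 CPM in untreated libraries at this day, and the summed primitive streak markers (5 of 5 detected) between 136 and 405 CPM and between 438 and 754 CPM. Such differences were not particular to these lists. Lower in XAV939 libraries without overlap were also surface ectoderm (60.0 to 90.0 against 121 to 261 CPM), definitive endoderm and gut (47.9 to 109 against 146 to 255 CPM) and extraembryonic markers (21.8 to 34.3 against 56.2 to 146.5 CPM). Neuron markers were higher without overlap (85.2 to 107 against 53.3 to 78.4 CPM). The part of these cell types in the ligand values was not tested.

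At day 6, Wnt7b was called higher, as 1.39% of genes were. It had 1.02 to 10.8 CPM in XAV939 and 0.453 to 0.733 CPM in untreated aggregates without overlap (5.92% of genes), and its log2 fold change was 2.93 (SE 0.66, adjusted p 0.00643), 7.61-fold higher. The call was lost without XAV939 replicate 1 (2.07, adjusted p 0.0828) and in a fit of only the 8 libraries (adjusted p 0.15). It held with a replicate block within the day. Wnt7a was 1.18 (SE 0.42, adjusted p 0.112), and it was called with the block within the day (1.11, adjusted p 0.0231) and without XAV939 replicate 3 (1.45, adjusted p 0.037). Wnt2b was -1.56 (SE 0.61, adjusted p 0.171) and was called with that block (-1.62, adjusted p 0.0259). Since same-numbered libraries deviated together, these blocked values stand beside the unblocked ones. The summed neural progenitor markers (Sox1, Pax6, Sox2, Nes and Pou3f2, 5 of 5 detected) ran between 331 and 581 CPM in XAV939 and between 148 and 327 CPM in untreated libraries at day 6, and their part in the Wnt7a and Wnt7b values was not tested. At day 3 this sum was already 286 to 309.5 CPM in XAV939 and 290 to 311 CPM in untreated libraries, so by itself it does not show neural cells. Other lists were lower in XAV939 libraries at day 6 without overlap. Among them were surface ectoderm (161 to 276 against 307 to 1036 CPM) and definitive endoderm and gut (73.8 to 133 against 154 to 370.5 CPM).

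At day 7 no ligand was called by edgeR or DESeq2 (0.00592% of genes in edgeR). At an unadjusted p below 0.05 there were 2 ligands and 1326 of 16878 genes. Of the 10 values 8 were positive, some of them near 0 (Wnt8a 0.07 and Wnt5b 0.09). The median was 0.42 against -0.01 over all genes, and none was without overlap (4.9% of genes). At day 6, 4 values were positive and 6 negative, with a median of -0.03. Wnt7b was at 1.77 (SE 0.61, adjusted p 0.267), and at 0.97 without XAV939 replicate 1. Wnt3 was at 1.49 (SE 0.62, adjusted p 0.442), and at 0.32 without the same library. In a joint F test of the 5 days Wnt7b (adjusted p 0.00336) and Wnt2b (adjusted p 0.00868) were called, among 5.8% of genes, and Wnt3 was next at 0.0574. In a test of whether the effect changed over the days no ligand was called by edgeR, among 0.231% of genes, with the lowest adjusted p at 0.264 for Wnt3. At an unadjusted p below 0.05 there were 5 ligands in that test, and DESeq2 was not used for it. The number of all genes at that unadjusted cut-off is not given here. Both F tests were run without a replicate block. So no ligand's difference between the arms was shown to vary between days.

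**Figure D4:**
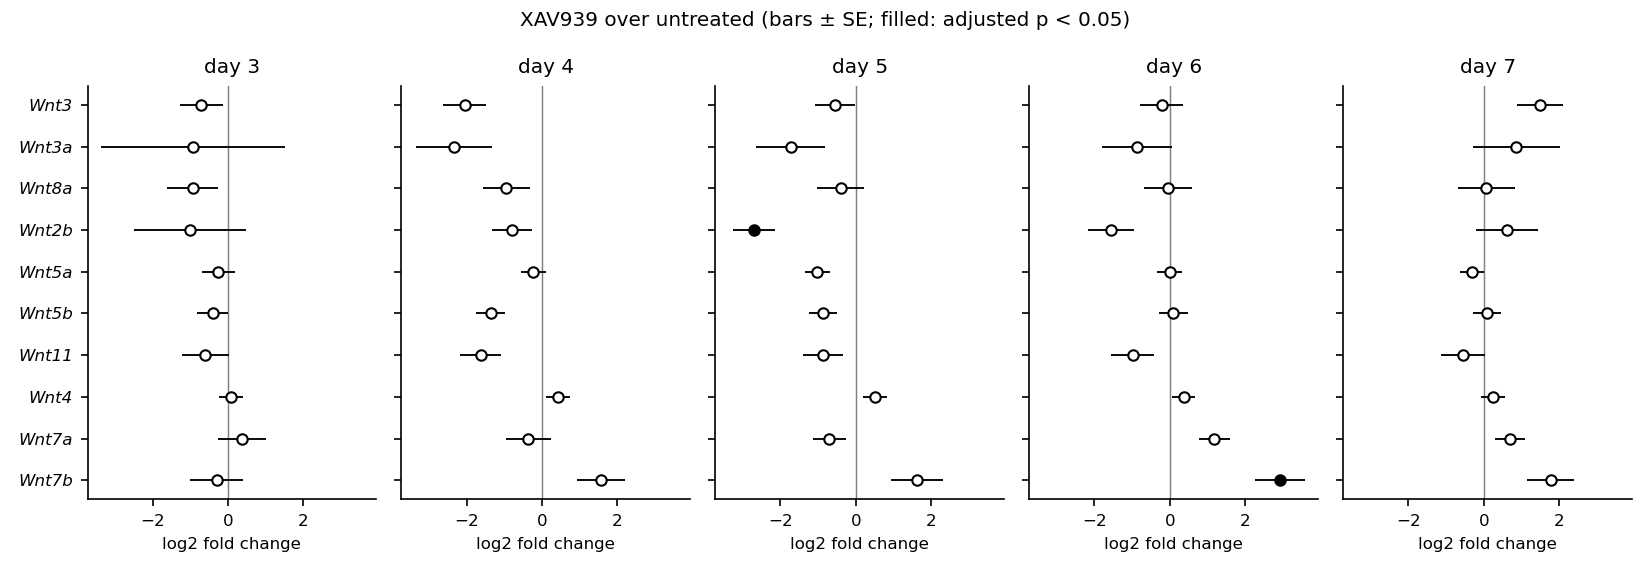
Log2 fold change of XAV939 over untreated aggregates for each ligand (listed downwards) at each day (1 panel a day), with SE bars and filled points where the adjusted p is below 0.05. Filled points are Wnt2b at day 5 (-2.70) and Wnt7b at day 6 (2.93), and most points lie left of 0 at days 3, 4 and 5 and right of 0 at day 7.

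Axin2, the general target of β-catenin, averaged 14.9, 52.7, 74.7, 60.0 and 42.9 CPM at days 3, 4, 5, 6 and 7 in XAV939 aggregates and 18.1, 61.4, 84.8, 43.0 and 30.9 CPM in untreated aggregates, with adjusted p between 0.478 and 1 for the difference between the arms. Of 16 β-catenin target genes, T at day 4 (-4.87, SE 0.83, adjusted p 0.011) and Nkd2, a feedback inhibitor, at day 5 (-1.14, SE 0.28, adjusted p 0.0228) were lower in XAV939 aggregates, the only calls in the list over the 5 days. Both calls depended on single libraries. T was at -1.80 (adjusted p 1) without day 4 untreated replicate 1, at -2.72 (adjusted p 0.24) with the block within the day and at adjusted p 0.0775 with the block over all libraries and 1 in a fit of only the 8 libraries. Its call was also lost without XAV939 replicates 1 (0.15), 3 (0.0797) or 4 (0.0695). Nkd2 was at -0.38 (adjusted p 0.456) without day 5 untreated replicate 1, and was not called with the block within the day (-0.84, adjusted p 0.0535), in a fit of only the 8 libraries (0.31) or without XAV939 replicates 1 (0.0552), 2 (0.0507) or 4 (0.107). Their median log2 fold changes were -0.23, -0.30, -0.84, -0.38 and -0.13 at days 3, 4, 5, 6 and 7, with that of all genes between -0.02 and 0.01.

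Of the machinery that makes Wnt ligands ready for release, Wls, which carries them to the cell surface, and Porcn, which adds their lipid, rose with the first ligands. At day 4 over day 3 Wls rose by 3.56 (SE 0.30, adjusted p 3.62e-11) in XAV939 and by 3.13 (SE 0.30, adjusted p 6.39e-10) in untreated aggregates. Porcn rose by 3.09 (SE 0.25, adjusted p 1.01e-11) in XAV939 and by 3.15 (SE 0.25, adjusted p 9.57e-12) in untreated aggregates. In that step, in which 20.3% of all genes rose in XAV939 and 17.6% in untreated aggregates, 5 of 7 tested genes of secretion and processing rose in each arm. Between the arms the glypicans Gpc3 (-0.73, SE 0.21, adjusted p 0.0335) and Gpc4 (-1.44, SE 0.25, adjusted p 0.000555), cell surface proteoglycans, were lower in XAV939 aggregates at day 6. The call of Gpc4 held whichever single library was left out and that of Gpc3 was lost without any of 5 of the 8, XAV939 replicates 1 (0.125) and 4 (0.141) and untreated replicates 1 (0.107), 2 (0.0583) and 3 (0.0946), and neither was called in a fit of only the 8 libraries (0.109 for Gpc4 and 0.138 for Gpc3). Of 10 Frizzled receptors 5 rose at day 4 over day 3 in each arm, beside those 20.3% and 17.6% of all genes. Fzd5 was lower in XAV939 aggregates at day 5 (-1.39, SE 0.38, adjusted p 0.0383) and day 6 (-1.65, SE 0.37, adjusted p 0.00666), the only calls of that list between the arms. The day 5 call was lost without any of 6 of the 8 libraries, at -1.03 (adjusted p 0.297) without untreated replicate 2 and at adjusted p 0.0635 to 0.19 without untreated replicate 1 or any XAV939 replicate. The day 6 call was lost without untreated replicate 2 (adjusted p 0.0512), and in fits of only the 8 libraries of a day neither was called (0.0961 at day 5 and 0.15 at day 6). Of 6 co-receptors and alternative receptors 3 rose at day 4 over day 3 in each arm. Without day 4 untreated replicate 1 the untreated counts were 5 of 7, 4 of 10 and 2 of 6 over these lists. Among them Ror2, a receptor for Wnt5a, rose by 4.81 (SE 0.28, adjusted p 1.47e-14) in XAV939 and by 4.20 (SE 0.27, adjusted p 2.95e-13) in untreated aggregates. Of 9 genes of the R-spondin module, which controls the removal of Frizzled receptors, the ligand Rspo3 (-1.41, SE 0.38, adjusted p 0.0376) and the receptor Lgr6 (-1.45, SE 0.39, adjusted p 0.0372) were lower in XAV939 aggregates at day 5. Without untreated replicate 1 they were at -1.02 (adjusted p 0.232) and -0.54 (adjusted p 0.563). Both calls were also lost without untreated replicate 2 or XAV939 replicates 1, 3 or 4 (adjusted p 0.0856 to 0.175 for Rspo3 and 0.058 to 0.13 for Lgr6), that of Lgr6 without XAV939 replicate 2 (0.0825) and with the block within the day (0.0526), and both in a fit of only the 8 libraries (0.0959 for Rspo3 and 0.305 for Lgr6).

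The other 9 Wnt ligand genes tested stayed low in most libraries. Of them Wnt2 was lower in XAV939 aggregates at day 5 (-3.12, SE 0.85, adjusted p 0.0415), with 0.0572 to 0.304 CPM, against 0.342 to 3.37 CPM in untreated aggregates. That call was lost in a fit of only the 8 libraries (adjusted p 0.0968) and without any single library but untreated replicate 4, at adjusted p between 0.0512 and 0.247, the highest (-2.24) without untreated replicate 1. Wnt16 rose at day 6 over day 5 by 3.13 (SE 0.40, adjusted p 7.42e-07) in XAV939 and by 3.84 (SE 0.39, adjusted p 1.39e-08) in untreated aggregates. Wnt1, a ligand of the dorsal neural tube and of the border of midbrain and hindbrain, was at 0 counts at day 3 in each of the 8 libraries. The day 4 values were 9.14, 0.305, 0.0576 and 7.001 CPM in XAV939 and 0, 0.0556, 0.121 and 1.60 CPM in untreated aggregates. At day 6 it had 14.7, 0.413, 0.189 and 3.20 CPM in XAV939 and 2.24, 0.257, 0.259 and 0.410 CPM in untreated aggregates. XAV939 replicates 1 and 4 were its 2 highest on 3 of the 4 days after day 3, the same libraries as for Wnt7b. Wnt10b, another ligand of the canonical branch, was also highest in these at day 4, with 6.10 and 4.90 CPM, against 0.762 and 0.346 CPM in XAV939 replicates 2 and 3. These patterns over replicate numbers were seen in the data and were not tested.

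**Figure D5:**
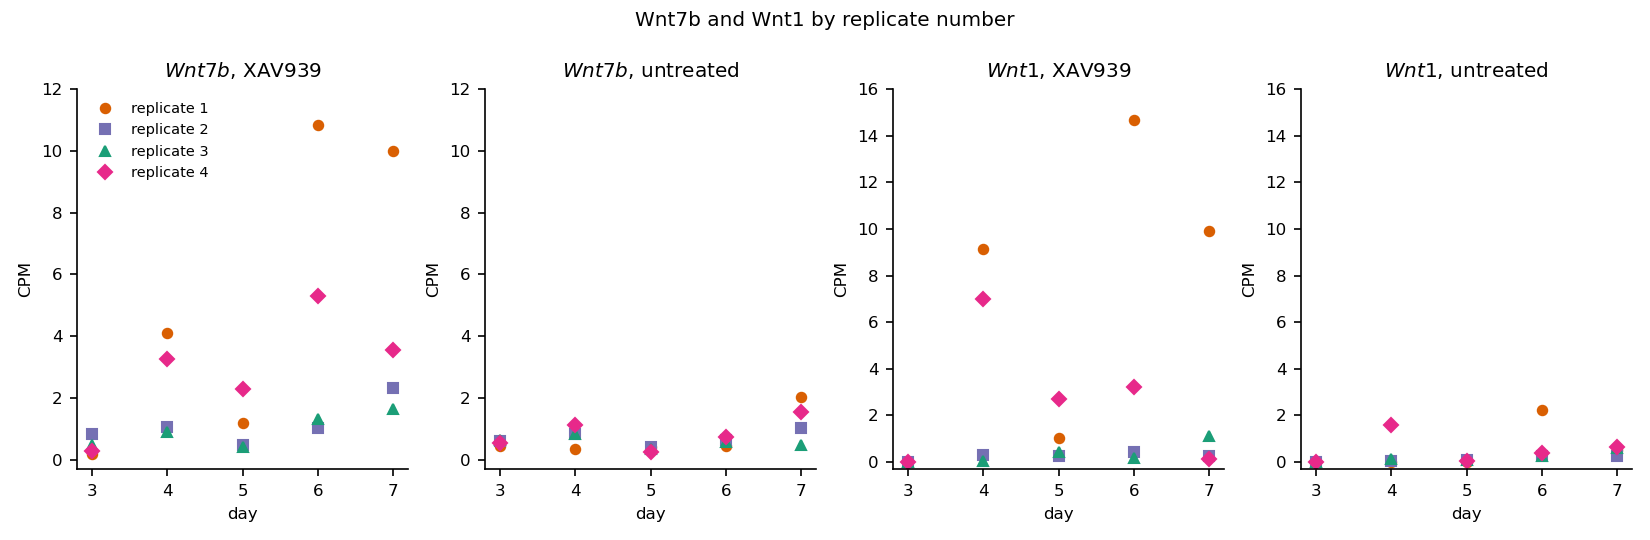
CPM of Wnt7b (left pair of panels) and Wnt1 (right pair) against the day, XAV939 left of untreated, with a mark for each replicate number. In XAV939 aggregates replicates 1 and 4 lie above 2 and 3 for Wnt7b on days 4, 5, 6 and 7, up to 10.8 CPM, while untreated libraries stay at or below 2.03 CPM.

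Likeness between genes was described by Pearson's r of mean log2 CPM over the 10 groups, which share their libraries and their strong common change with time, so a high r is a description only. Among the ligands Wnt5a and Wnt5b were most alike (r = 0.945), then Wnt3 and Wnt8a (0.913), Wnt2b and Wnt11 (0.895) and Wnt5a and Wnt7a (0.854). Among 11902 genes of at least 5 CPM in their highest group, the most alike were Cpz for Wnt8a (0.991), Meis3 for Wnt5a (0.995), Rab8b for Wnt5b (0.988) with Vangl1 next (0.987), and Dnajc1 for Wnt7a (0.987). For Wnt3 it was Echdc2 (0.97), for Wnt3a Rftn1 with Emx2 next (both 0.975), for Wnt2b Gna14 (0.96), for Wnt11 Cdc14b (0.948), for Wnt7b Tmem229b (0.931) and for Wnt4 Bend6 (0.912). Epiblast markers (Pou5f1, Nanog, Fgf5, Dnmt3b and Utf1), which the label of the aggregates calls for, summed to medians of 2821, 3006, 841, 169 and 84.1 CPM at days 3, 4, 5, 6 and 7 in XAV939 aggregates and 2840, 2877, 1057, 342 and 132 CPM in untreated aggregates, so by these markers the epiblast label describes days 3 and 4 better than the later days.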

How the data were processed

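The authors deposited 1 table of counts per gene for 40 libraries, whole numbers that they had not normalized. Per the labels' protocols the libraries were made with a TruSeq stranded mRNA kit and read on an Illumina HiSeq, and per the submitters' processing notes bcl2fastq 2.20.0 and the build mm10 were used. The sources used here do not give the aligner, the counter, its strand setting or the annotation, so reads shared between paralogues or overlapping genes may be split or lost in ways that cannot be checked. Every value column of the table was matched to a library by its name.

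Samples were grouped by arm and day from their labels. The counts were fitted in R 4.3.3 with edgeR 4.0.16 (limma 3.58.1): filterByExpr over the 10 groups (minimum count 10, minimum total 15), TMM scaling and the quasi-likelihood test with robust fitting, 1 mean per group over all 40 libraries (30 residual degrees of freedom). P-values were adjusted by Benjamini-Hochberg over all 16878 genes tested, and a gene was called at adjusted p below 0.05. CPM are counts scaled by the TMM-adjusted library totals, and log2 fold changes are the fitted ones. Intervals of summed counts cover counting error only. The fit was tested on simulated data.

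The 10 ligands are named in every comparison. Of each pathway list the 2 to 4 members with the smallest adjusted p were named, and for likeness the genes of highest Pearson r among those of at least 5 CPM in their highest group. The ligands, the lists and the tests were chosen with earlier results of these data known. Wnt1, Wnt10b, Wnt2 and Wnt16 values by library were picked out after they were seen.

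Same-numbered libraries of the 2 arms deviated together within every day (20 of 20 correlations over 0.1, between 0.145 and 0.523). The main tests and the F tests used group means without a replicate block, and the blocked fits are given as alternatives. Between neighbouring days they did in 15 of 16 XAV939 pairs and 11 of 16 untreated pairs. Between days 7 and 3 of an arm they did in 1 of 8 pairs. What a number stands for is not given in the labels. Alternatives were RLE scaling, DESeq2 1.42.0, other filters on low counts, an added fold limit, replicate blocks, fits of only the libraries compared and leaving out libraries. Promoter sequences are RefSeq's (GRCm38.p6) without annotated exons. Figures were drawn with matplotlib 3.10.9 in Python 3.11.15.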

Additional observations from a re-analysis of the deposited data

Results flagged for a closer look

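In 12 of 100 combinations of ligand and group, 1 library lay so far from the other 3 that its gap exceeded Dixon's 95% critical value. Chance flags about 1 in 20 groups of independent, normally distributed values. The rule was applied to CPM without a log scale, and the ligands share their libraries, so the count of 12 is not a test against that rate. In day 4 untreated replicate 1, Wnt3 had 59.49 CPM (the others 6.56 to 10.12), Wnt3a 15.84 CPM (0.1814 to 0.4847), Wnt11 6.335 CPM (0.6953 to 1.558) and Wnt7a 0.6047 CPM (0.1209 to 0.1996). In day 5 untreated replicate 1, Wnt5b had 24.25 CPM (the others 13.39 to 13.88). In day 6 untreated replicate 3, Wnt3a had 14.57 CPM (1.359 to 3.312) and Wnt5b 19.19 CPM (9.246 to 9.909). In day 7 XAV939 replicate 1, Wnt3 had 6.099 CPM (0.5739 to 1.458) and Wnt4 4.491 CPM (1.202 to 1.586), and in day 7 XAV939 replicate 3 Wnt8a had 5.704 CPM (0.1386 to 0.7378). In day 3 untreated libraries, Wnt3 had 6.297 CPM in replicate 1 (2.868 to 3.046) and Wnt3a 0.1793 CPM in replicate 3 (0 to 0.02871). In all 12 the library was the highest of its group.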

How the results depend on the processing

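Over single ligands, 2269 values under the alternatives kept their direction and side of the threshold, 50 lost the call, 47 gained it, 70 values that were called neither before nor after changed sign, and no called value changed direction. The causes were not tested.

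For XAV939 against untreated aggregates, the genes called were 1, 3, 395, 733 and 1 at days 3, 4, 5, 6 and 7. Replicate blocks over all libraries gave 0 at day 4, 678 at day 5 and 98 at day 7, and blocks within each day 0, 0, 1240, 1727 and 381 at days 3, 4, 5, 6 and 7. With these pairings the ligands called were 2 at day 5 (block within the day) and 2 (over all) and 3 (within the day) at day 6, instead of 1 each. DESeq2 called 56 genes at day 4, 614 at day 5 and 101 at day 7, and 2 ligands at day 5. Fits of only the libraries compared called 0 genes at all 5 days, and so 0 ligands at days 5 and 6. Without a filter 0 genes were called at days 3 and 4, and with at least 1 CPM in 4 libraries 0 at day 3. Without the 3 untreated libraries (day 4 replicate 1, day 5 replicate 1 and day 6 replicate 3) it was 0 at days 3 and 4 and 25 at day 7.

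For the steps in time, the added fold limit (absolute log2 fold change of at least 1) gave 3085 genes in XAV939 and 2846 in untreated aggregates at day 4 over day 3 (6412 and 5517 without it). It gave 2757 and 1798 at day 5 over day 4 (5240 and 3148), and 1734 and 2067 at day 6 over day 5 (2862 and 3345). It gave 1225 in untreated aggregates at day 7 over day 6 (2057), and 7289 and 6818 at day 7 over day 3 (11961 and 11350). Fits of only the libraries compared gave 1464 at day 6 over day 5 and 438 at day 7 over day 6 in untreated aggregates, and 1 ligand instead of 2 at day 7 over day 6 in XAV939 aggregates. Without the 3 untreated libraries, 8 ligands instead of 5 were called at day 4 over day 3 in XAV939 aggregates. In untreated aggregates it was 3 instead of 7 in that step, 5 instead of 2 at day 5 over day 4, 6 instead of 3 at day 6 over day 5, and 1172 genes at day 7 over day 6. The block over all libraries called 5 ligands at day 5 over day 4 in untreated and 4 at day 7 over day 6 in XAV939 aggregates, and left 3 plateau ligands instead of 5 in XAV939 aggregates. It called Wnt3 at day 4 over day 3 in XAV939 aggregates (1.22, adjusted p 0.0453). For most of these steps the count of all genes called under the same setting is not given here. These ligand counts are therefore not read as a result about the ligands.

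Leaving out each library in turn, XAV939 against untreated aggregates gave 0 to 0 ligands (0 to 1 genes) at day 3, 0 to 1 (0 to 55) at day 4, 0 to 2 (83 to 449) at day 5, 0 to 2 (331 to 1169) at day 6 and 0 to 0 (0 to 83) at day 7. In XAV939 aggregates the ligands (genes) called were 4 to 5 (5322 to 6259) at day 4 over day 3, 3 to 5 (3889 to 5757) at day 5 over day 4, 3 to 5 (1902 to 2946) at day 6 over day 5, 2 to 3 (559 to 1325) at day 7 over day 6 and 5 to 7 (11366 to 11813) at day 7 over day 3. In untreated aggregates they were 3 to 7 (4603 to 5281), 2 to 5 (2138 to 3897), 3 to 4 (2483 to 3597), 3 to 5 (955 to 3042) and 5 to 5 (10792 to 11044) over the same steps. For pathway genes the same alternatives, chosen after seeing the data, are given beside the values. Low counts limit Wnt2b and Wnt3a at day 3.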
